A study of Mus musculus with 96 samples.

Results

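The genes described here encode subunits of the GABA-A receptor, the chloride channel opened by the transmitter GABA. They are Gabra2, Gabra3, Gabra4, Gabra5, Gabrb1, Gabrb2 and Gabrd, 7 of the 55335 genes counted. They were taken as a named list, matched to the count table by Ensembl identifier, and were not selected by a threshold on these values. All 7 had reads in 96 of 96 libraries and all 7 passed the filter on low counts in every fit.

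RNA was sequenced from nuclei sorted out of mouse visual cortex, in pools of 50 to 100 nuclei. All mice carried 1 Flp allele at Vip (VIP flp/wt) and had floxed enhancers of Igf1, with the genotypes Igf1-E1 fl/fl, Igf1-E23 fl/fl or Igf1-E123 fl/fl, which Cre removes. At postnatal day 55 to 60 the cortex was injected with a Flp-dependent virus under the Syn1 promoter, AAV-Syn1-fDIO-mScarlet-KASH-2a-Cre, or its control, AAV-Syn1-fDIO-mScarlet-KASH-2a-dCre. From 3 days later the mice were kept in the dark for 10 to 12 days, and tissue was taken in the dark or after 1 h of light. The 3 lines, 2 viruses and 2 light conditions make 12 conditions, each with 3 to 5 replicates of VIP nuclei and as many of total nuclei, so that 24 groups hold 96 libraries (52 female, 44 male). The recombinase is confined to cells that express Flp, so most nuclei in a total pool are outside its reach. The labels number the replicates as biological but do not say that each is a separate animal, and the p-values measure the spread between these libraries.

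GABA-A receptors are pentamers, most often built from alpha and beta subunits with 1 gamma or delta subunit. Receptors with alpha2 or alpha3 and a gamma subunit are found largely at synapses, where they give fast inhibition. Alpha5, and alpha4 together with delta, are found largely outside synapses, where they respond to low ambient GABA and give a tonic current. VIP interneurons are GABAergic cells that in cortex mainly inhibit other interneurons, and they themselves receive inhibition through these receptors.

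The genes lie in clusters that arose by duplication. On the GRCm38 assembly (mm10), Gabra2 is at chr5:70957597-71095849 and Gabra4 at chr5:71569749-71658308, both on the minus strand, and Gabrb1 at chr5:71658113-72149037 on the plus strand. Gabrb2 is at chr11:42419757-42629028 (plus), Gabra5 at chr7:57407672-57510059 (minus), Gabra3 at chrX:72432681-72656848 (minus) and Gabrd, which stands alone, at chr4:155384980-155398112 (minus). Gabrd spans 13.1 kb, and the other 6 span 88.6 to 491 kb. Gabra4 and Gabrb1 start head to head and overlap by 196 bases. Gabrb1 shares 19.6 kb with an antisense gene, Gm38562. The strand setting of the counting is not given in the sources used here, so reads of overlapping genes may not be separated. Gabra5 also overlaps another gene on the opposite strand, and its values are uncertain to that extent.

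The stretches of 250 bases before an annotated start are shown for Gabrb2, the only one of these genes that was higher in VIP than in total nuclei, and for Gabra5, which was among the most reduced there. Both come from RefSeq on GRCm38.p6 and are written 5′ to 3′ on the strand of the gene. The Gabrb2 window, before the first of 3 RefSeq starts, is chr11:42420190-42420439 (plus) and the Gabra5 window chr7:57510060-57510309 (minus). The Gabrb2 window lies inside the gene span given above, which comes from GENCODE and begins further upstream. Capitals mark a match to the TATA box letters TATAAA.
Gabrb2: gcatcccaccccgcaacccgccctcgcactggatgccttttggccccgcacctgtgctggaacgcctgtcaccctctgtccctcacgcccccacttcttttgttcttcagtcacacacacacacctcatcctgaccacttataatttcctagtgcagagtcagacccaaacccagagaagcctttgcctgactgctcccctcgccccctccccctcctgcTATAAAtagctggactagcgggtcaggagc
Gabra5: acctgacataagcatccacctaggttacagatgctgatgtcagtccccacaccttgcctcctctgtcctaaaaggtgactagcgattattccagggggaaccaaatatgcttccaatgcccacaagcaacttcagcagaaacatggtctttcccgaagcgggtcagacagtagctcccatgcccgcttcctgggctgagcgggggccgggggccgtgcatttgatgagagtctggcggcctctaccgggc
The capitals in Gabrb2 end 25 bases before the start. TATAAA on either strand was present in 12.37% of 32851 such windows of all genes. Both windows were also searched on both strands for the letters bound by factors of the activity response, TGACGTCA (CREB), TGACTCA (AP-1) and GCGTGGGCG (EGR). These letters occurred in 1.55%, 4.46% and 0.54% of all windows, and in neither of the pair shown. The share of G and C was 58.8% in Gabrb2 and 56.4% in Gabra5, against a median of 52.4%.

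Library totals ranged from 1559883 to 9122515 reads assigned to genes, and levels are given as CPM, counts per 1000000 reads on TMM-scaled library sizes. The labelled cell type was checked against markers. In VIP nuclei all 8 VIP markers and all 8 GABAergic markers were higher than in total nuclei, and all 8 excitatory markers, 7 of 7 oligodendrocyte markers and 6 of 6 microglial markers were lower. Of 6 astrocyte markers 3 were lower, and of 5 endothelial and mural markers 1 was higher and 4 did not pass. Markers of other interneurons went both ways. Pvalb, Tac1, Sst, Grin3a, Lamp5 and Ndnf were lower in VIP nuclei, and Kcnc1, Elfn1, Sncg and Reln were higher. The summed astrocyte markers were 7.78 to 1128 CPM in VIP and 38.6 to 290 CPM in total libraries. The summed level of the excitatory markers was 25.0 to 433 CPM in VIP libraries and 301 to 702 CPM in total libraries, so VIP pools were not free of RNA of other cells. Igf1 in VIP nuclei was 787 ± 151 CPM with dCre (SD, n = 8) and 448 ± 96.7 CPM with Cre (n = 9) in line E1. It was 700 ± 136 and 577 ± 180 CPM in line E23 (n = 8 each), and 595 ± 198 (n = 8) and 313 ± 49.7 CPM (n = 7) in line E123. After light, 14 of 16 rapid immediate-early genes rose in VIP nuclei of dCre animals. The dark dCre libraries 1 and 2 of lines E1 and E123 stood apart in both fractions by a length index, the mean log2(CPM + 1) of genes over 100 kb minus that of genes under 10 kb. The index used protein-coding genes with a mean of at least 1 CPM, 2321 long and 3017 short, with the members left out. It was 4.18 to 4.28 in these 4 VIP libraries and 1.69 to 3.43 in the other 44. For members, values that rest on dark dCre libraries are also given without these 4 animals where they change. Here an animal stands for a line and replicate number in whichever fraction was fitted, though the labels do not tie a number to an animal.

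VIP nuclei carried less Gabrd, Gabra5 and Gabra4 than total nuclei, slightly less Gabra2 and Gabrb1, and more Gabrb2. The comparison averages VIP minus total over the 12 conditions and was tested with edgeR's quasi-likelihood test with Benjamini-Hochberg adjustment over 22926 genes. Of the 7 genes, 1 was higher and 5 were lower. Over all genes tested, 35.5% passed, with 14.8% higher and 20.7% lower, and the median log2 difference was -0.11, against -0.41 over the 7. Most of the 7 genes span over 100 kb, and calls were more frequent among long genes. Of 2427 other protein-coding genes over 100 kb, 32.2% were higher and 33.1% lower. In pools of nuclei, fewer cells that express a gene and less RNA in each cell cannot be told apart.

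Gabrb2, which encodes the beta2 subunit, one of the most abundant in the adult brain, ranged from 196 to 786 CPM in the 48 VIP libraries with a median of 356 CPM. In the 48 total libraries it ranged from 172 to 516 CPM with a median of 283 CPM. The ranges overlap widely, but the VIP mean was above the total mean in 12 of 12 conditions, by 0.12 to 0.80 on the log2(CPM + 1) scale. The fitted log2 difference was 0.38 ± 0.07 (SE; 1.30-fold), with an edgeR adjusted p of 9.57e-07.

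Gabrd, the delta subunit, was the most reduced of the 7. Its range was 1.26 to 56.9 CPM in VIP libraries (median 23.3) and 14.8 to 192 CPM in total libraries (median 86.0). The VIP mean was lower in 12 of 12 conditions, and 16 of 48 VIP libraries lay below every total library. The log2 difference was -1.99 ± 0.15 (0.252-fold; edgeR adjusted p = 1.75e-19).

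Gabra5 ranged from 7.08 to 55.1 CPM in VIP libraries (median 24.5) and from 33.5 to 139 CPM in total libraries (median 86.4). VIP means were lower in 12 of 12 conditions and 36 of 48 VIP libraries lay below every total library, so of the 7 genes it separated the fractions most fully. Its log2 difference was -1.74 ± 0.12 (0.300-fold; edgeR adjusted p = 1.63e-23). Gabra4, the usual alpha partner of delta in forebrain, ranged from 31.5 to 130 CPM in VIP nuclei (median 69.5) and from 34.7 to 200 CPM in total nuclei (median 138). It differed by -0.97 ± 0.09 (0.511-fold; edgeR adjusted p = 3.24e-16), again with lower VIP means in 12 of 12 conditions.

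The remaining members differed less. Gabra2 had a median of 166 CPM in VIP libraries (77.6 to 315) and 228 CPM in total libraries (91.5 to 363), a log2 difference of -0.41 ± 0.09 with an edgeR adjusted p of 4.10e-05. Gabrb1, the beta1 subunit, had a median of 496 CPM in VIP libraries (294 to 941) and 600.3 CPM in total libraries (340 to 1072), a difference of -0.22 ± 0.06 with an edgeR adjusted p of 0.00225. For both genes the VIP mean was lower in 11 of 12 conditions, and the ranges of the fractions overlap almost fully. Gabra3 had a median of 38.1 CPM in VIP libraries (6.43 to 116) and 50.3 CPM in total libraries (17.7 to 90.0). Its difference of -0.23 ± 0.12 did not pass (edgeR adjusted p = 0.140), and the interval of 2 SE ran from -0.48 to 0.01. Gabra3 passed with libraries scaled to total counts alone (-0.37, adjusted p = 0.00992) and without replicate number 1 of every group (-0.35, adjusted p = 0.0278). The other 6 calls held in each of 8 alternative settings and each time a replicate number was left out.

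**Figure D1:**
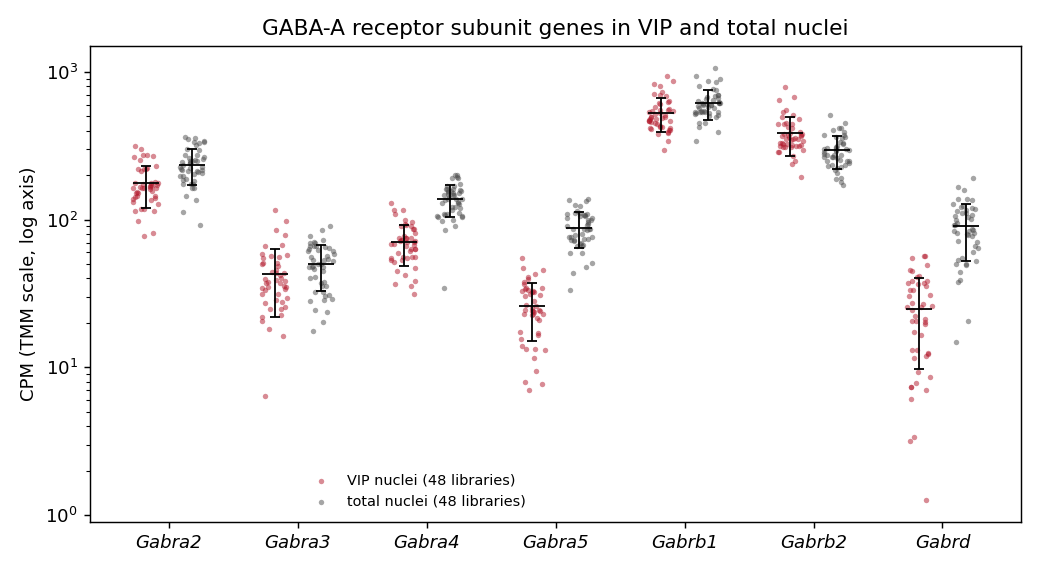
Level of each of the 7 genes in CPM (TMM scale, log axis) in 48 VIP and 48 total libraries; each point is a library, and the bars give the mean and SD. Gabrb2 is the gene with a higher mean in VIP nuclei (385 ± 113 against 295 ± 74.0 CPM), and Gabra5 and Gabrd show the widest gaps below total nuclei.

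Levels of different genes can be set beside each other only per length. Per kb of exon, the order in VIP nuclei was Gabrb2 (60.5 ± 17.7 CPM per kb, SD, n = 48), Gabrb1 (38.4 ± 10.1), Gabra2 (23.05 ± 7.26), Gabra4 (11.6 ± 3.61), Gabra3 (10.9 ± 5.32), Gabra5 (8.79 ± 3.72) and Gabrd (8.65 ± 5.28). Gabrb2, Gabrb1 and Gabra2 stand more than 1 SD apart, and the last 4 genes lie within 1 SD of their neighbours. In total nuclei Gabrb2 (46.4 ± 11.6 CPM per exon kb) and Gabrb1 (44.7 ± 10.3) led and did not differ beyond their spread. Gabrd (31.4 ± 13.03), Gabra2 (30.8 ± 8.51), Gabra5 (29.7 ± 8.22) and Gabra4 (22.6 ± 5.48) followed within 1 SD of each neighbour, and Gabra3 (12.8 ± 4.44) was last. In VIP nuclei Gabrd was not separated from Gabra5. The order depends on the length used, since nuclear RNA holds introns and the counted features are not given in the sources used here. Per kb of whole gene, the short Gabrd came first in both fractions (1.89 ± 1.16 CPM per kb in VIP and 6.87 ± 2.85 in total nuclei) and Gabra3 last (0.191 ± 0.0930 and 0.224 ± 0.0777).

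After 1 h of light, Gabrb2 was lower in VIP nuclei of dCre animals and no other member passed. The comparison averages light minus dark over the 3 lines and was fitted on the 48 VIP libraries. Of the 7 genes, 0 were higher and 1 was lower, against a background of 6.27% of 20585 genes past the threshold (3.97% higher, 2.3% lower). Gabrb2 ranged from 298 to 786 CPM in the 11 dark libraries (median 444) and from 250 to 450 CPM in the 13 light libraries (median 331). The groups overlap between 298 and 450 CPM, and the highest dark libraries belong to lines E1 and E123. The log2 change was -0.47 ± 0.13 (0.723-fold; edgeR adjusted p = 0.0279).

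The mean length index of dCre VIP libraries was higher in dark than in light in all 3 lines. A correlation of Gabrb2 with the index was not tested. The index was 3.71 ± 0.81 in dark and 2.54 ± 0.37 in light VIP libraries of E1 dCre (SD, n = 3 and 5), 3.75 ± 0.62 and 3.28 ± 0.14 in E123 dCre (n = 4 each), and 2.503 ± 0.44 and 2.03 ± 0.15 in E23 dCre (n = 4 each). The protein-coding genes tested in this comparison were also split by length, with the members left out. Their median log2 change was -0.28 for genes over 100 kb, 0.04 for genes of 10 to 100 kb and 0.56 for genes under 10 kb. With the index as a covariate the change in Gabrb2 was -0.15 (edgeR adjusted p = 0.775), and without the 4 dark animals of high index it was -0.26 (adjusted p = 0.665). The summed level of the 8 excitatory markers was 25.0 to 373 CPM in these dark libraries (median 112) and 50.6 to 433 CPM in the light ones (median 154), and the part of other cells in the result was not tested.

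**Figure D2:**
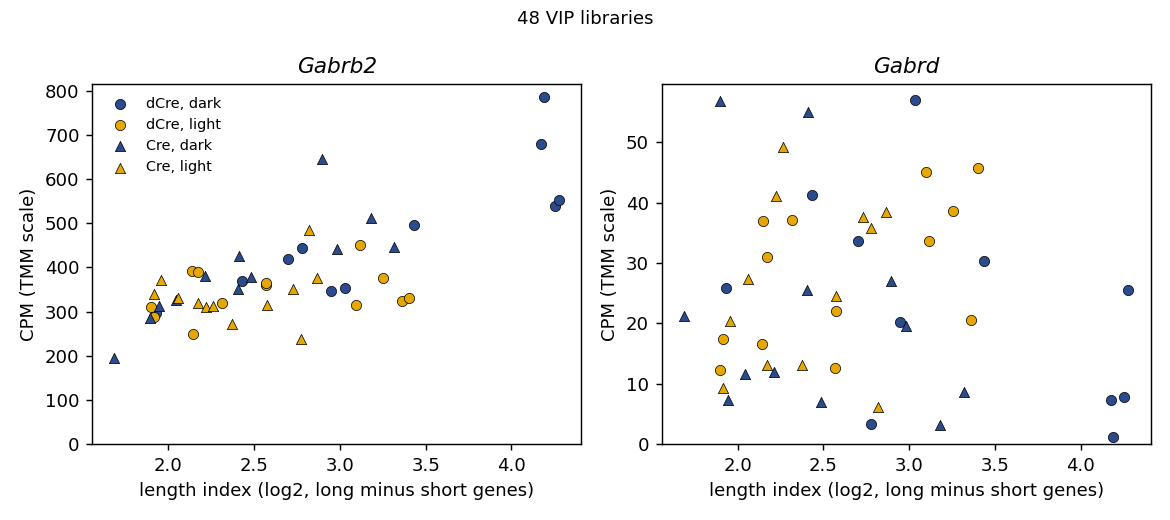
Level of Gabrb2 (left) and Gabrd (right) in CPM in each of the 48 VIP libraries against the length index of the library (log2 units, long minus short genes). Circles are dCre and triangles Cre libraries, blue dark and yellow light; the 4 dark dCre libraries with an index of 4.18 to 4.28 lie at the right of each panel, at 539 to 786 CPM for Gabrb2.

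The call for Gabrb2 was also lost with libraries scaled to total counts alone (-0.33, edgeR adjusted p = 0.0797) and with no filter on low counts (-0.48, adjusted p = 0.0599). It was lost on leaving out any of 5 single libraries, with changes of -0.42 to -0.47. These were dark E1 dCre libraries 1 (adjusted p = 0.0562) and 2 (0.0761), dark E123 dCre library 1 (0.0511), and E23 dCre library 3 in light (0.0512) and in dark (0.0514).

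Gabrd had the largest fitted change in the same comparison without passing. It ranged from 1.26 to 56.9 CPM in dark (median 25.6) and from 12.3 to 45.7 CPM in light (median 30.9), and the light values lie inside the range of the dark ones. The log2 change was 0.88 ± 0.35 (edgeR adjusted p = 0.122; interval of 2 SE from 0.17 to 1.58), and 0.77 without the 4 dark animals of high index (adjusted p = 0.610). Gabra3 ranged from 34.7 to 116 CPM in dark (median 45.6) and from 6.43 to 58.0 CPM in light (median 34.1), a change of -0.63 ± 0.27 with an edgeR adjusted p of 0.143, and of -0.52 without those animals (adjusted p = 0.652). Gabra2 (0.22 ± 0.18), Gabra4 (0.09 ± 0.20), Gabra5 (0.06 ± 0.29) and Gabrb1 (-0.18 ± 0.13) had adjusted p-values of 0.440 to 0.979. In simulated counts of these group sizes the comparison found 61 of 100 genes above 20 CPM that were changed 2-fold and 6 of 100 changed 1.5-fold, so smaller changes were mostly not detectable with these group sizes and this spread.

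With Cre, 0 of the 7 genes passed after light in VIP nuclei, against 0.35% of genes (0.267% higher, 0.0826% lower). By edgeR, 1916 of 20585 genes had an unadjusted p under 0.05, and of the members Gabra2 did. Gabrb2 had a median of 380 CPM in the 12 dark libraries (196 to 645) and 325 CPM in the 12 light libraries (238 to 484), a change of -0.24 ± 0.13 (edgeR adjusted p = 0.615). Gabrd changed by 0.13 ± 0.35 (adjusted p = 1.00). Gabra3 (-0.45 ± 0.27), Gabra2 (0.36 ± 0.18), Gabra4 (0.28 ± 0.20), Gabra5 (-0.31 ± 0.29) and Gabrb1 (-0.24 ± 0.13) had adjusted p-values of 0.526 to 0.872. The difference between the light responses with Cre and with dCre was itself tested, and 0 of the 7 genes passed, against 0.00486% of genes. It was 0.22 ± 0.19 for Gabrb2 (adjusted p = 0.800; interval of 2 SE from -0.16 to 0.61) and -0.75 ± 0.49 for Gabrd (adjusted p = 0.684; -1.74 to 0.23). Without the 4 dark animals of high index these differences were 0.019 and -0.64.

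In total nuclei 0 of the 7 genes passed after light, either with dCre, where 5.69% of genes passed (3.42% higher, 2.27% lower), or with Cre, where 1.49% did (1.09% higher, 0.396% lower). With dCre, Gabrb2 had a median of 333 CPM in dark (193 to 516, n = 11) and 266 CPM in light (172 to 376, n = 13), a log2 change of -0.32 ± 0.13 (edgeR adjusted p = 0.132). It passed without dark E1 dCre library 3 (-0.38, adjusted p = 0.0440), and was -0.04 with the index as a covariate and -0.06 without the 4 dark animals of high index. Gabra3 (-0.25 ± 0.21, adjusted p = 0.543) and Gabrd (0.24 ± 0.23, adjusted p = 0.623) did not pass, and for Gabrd the direction turned with the index as a covariate (-0.17) and without the 4 dark animals of high index (-0.25). With Cre, Gabrb2 changed by -0.25 ± 0.13 (adjusted p = 0.431) and Gabra3 by -0.41 ± 0.21 (adjusted p = 0.439). The light response in VIP minus that in total nuclei of dCre animals, tested in 1 fit of all libraries, passed for 0 of the 7 genes and for 0% of all genes, with 1361 genes at an unadjusted p under 0.05. DESeq2 called 23 genes there and none of the 7.

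**Figure D3:**
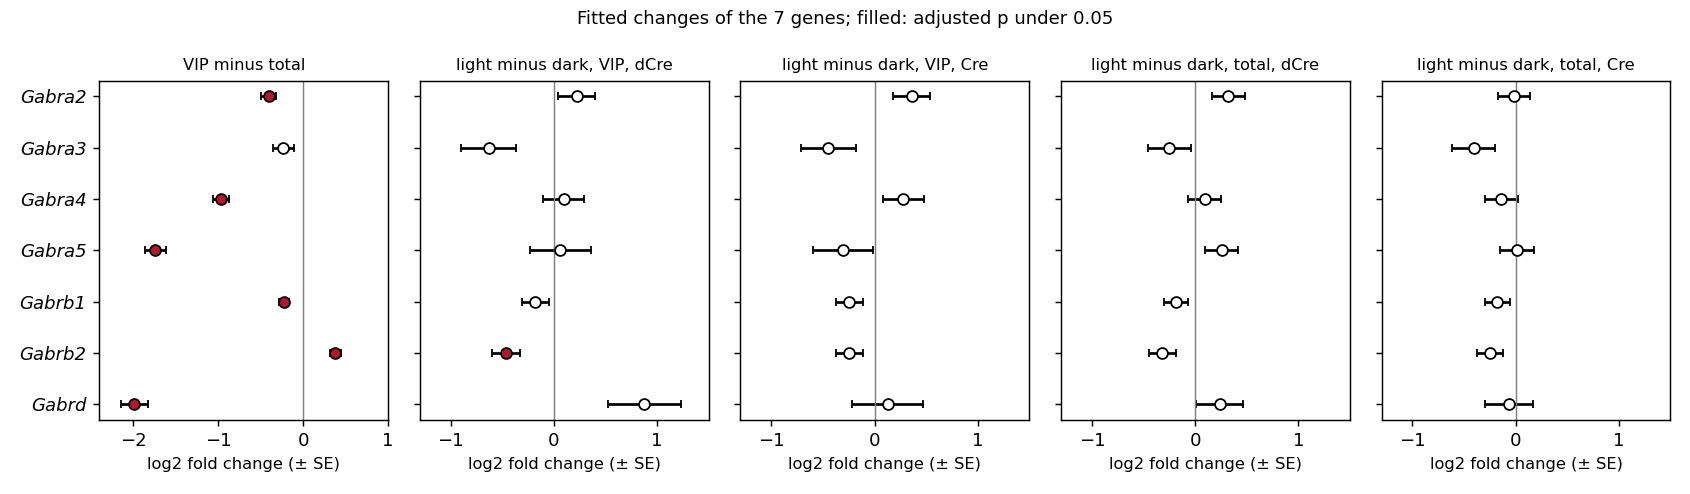
Fitted log2 fold change of each gene with its standard error, for VIP minus total nuclei and for light minus dark in VIP and total nuclei with dCre or Cre. Filled points have an adjusted p under 0.05; 6 of 7 are filled in the first panel, Gabrb2 alone in the second and none in the others.

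Within single lines, Gabrd rose after light in VIP nuclei of E1 dCre mice. It was 7.37, 1.26 and 3.38 CPM in the 3 dark libraries (40, 4 and 19 reads) and 33.6, 16.6, 37.0, 22.1 and 12.6 CPM in the 5 light libraries (45 to 236 reads). The groups do not overlap, and the dark group holds the lowest mean of Gabrd among the 12 VIP groups (4.004 CPM, against up to 37.5 CPM). The log2 change was 2.65 ± 0.70 (edgeR adjusted p = 0.0228), and 1 of 7 genes passed against 4.18% of all genes (2.68% higher, 1.5% lower).

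Markers of several other cell types moved in the same direction in these 8 libraries, and the medians of the summed lists for other interneurons in the opposite one. The summed level of the 8 excitatory markers was 25.0 to 46.1 CPM in dark, where Slc17a6 was at 0, and 50.6 to 310 CPM in light, where none was at 0. That of the 7 oligodendrocyte markers was 58.4 to 124 CPM in dark, with Mag and Sox10 at 0, and 113 to 395 CPM in light, and that of the 6 microglial markers 49.6 to 87.2 CPM in dark, with C1qb and Tmem119 at 0, and 111 to 136 CPM in light. The summed markers were 181 to 361 CPM in dark and 97.9 to 125 CPM in light for parvalbumin cells, 248.9 to 560.4 and 147 to 351 CPM for somatostatin cells, and 210 to 626 and 71.5 to 223 CPM for Lamp5 and Sncg cells. Over all 48 VIP libraries the largest terms of these sums were Kcnc1 (117 ± 50.4 CPM), Elfn1 (205 ± 106) and Reln (162 ± 114). All were also higher in VIP than in total nuclei, so these sums do not track those cells alone. In E1 dCre Kcnc1 (-1.35 ± 0.32) and Reln (-1.89 ± 0.53) fell. In the separate comparison over the 3 dCre lines Pvalb (2.49 ± 0.75), Sst (1.88 ± 0.56) and Chodl (5.10 ± 1.52) rose. These genes were low in VIP libraries, at 3.02 ± 2.35, 7.93 ± 8.95 and 0.322 ± 0.977 CPM (SD, n = 48). The 8 VIP markers summed to 3551 to 6564 CPM in dark and 4942 to 9394 CPM in light. Total nuclei held more Gabrd than VIP nuclei, and the part of RNA of other cells in the change was not tested. With a term for the index the change in Gabrd was 2.13 (edgeR adjusted p = 0.298), and it was 2.84 without the dark animals of high index, which leaves 1 dark library. It also missed the threshold without light library 3 (2.45, adjusted p = 0.0541) and without dark library 1 (3.36, adjusted p = 0.0864) or 2 (2.22, adjusted p = 0.164).

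In the other lines the values of Gabrd in dCre mice did not separate by light. In E23 they were 20.3, 41.3, 33.6 and 25.9 CPM in dark and 17.3, 12.3, 36.9 and 30.9 CPM in light (log2 change -0.33 ± 0.59, edgeR adjusted p = 0.940). In E123 they were 7.88, 25.6, 30.3 and 56.9 CPM in dark and 45.1, 38.6, 20.6 and 45.7 CPM in light (0.31 ± 0.59, adjusted p = 1.00), and the change was -0.22 without the dark animals of high index. Whether the response in E1 differed from that in the other lines was not tested.

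Gabrb2 in E1 dCre was 678, 786 and 444 CPM in dark and 450, 391, 319, 359 and 365 CPM in light, so that 1 dark library lay at the level of the highest light library. Its change of -0.67 ± 0.23 had an edgeR adjusted p of 0.0906, and it passed without dark library 3 (-0.84, adjusted p = 0.0241) and with DESeq2 (-0.72, adjusted p = 0.0205). In E123 dCre the values were 539, 552, 495 and 354 CPM in dark and 315, 376, 325 and 331 CPM in light (-0.52 ± 0.23, adjusted p = 0.700). Without the dark animals of high index the change in Gabrb2 was -0.24 in E1 and -0.33 in E123. In E23 dCre they were 347, 369, 419 and 298 CPM in dark and 288, 311, 250 and 389 CPM in light (-0.22 ± 0.23, adjusted p = 0.844). All 3 lines had a lower mean in light. In the single-line comparisons other than E1 dCre, 0 of the 7 genes passed, where the background was 0.0486% in E23 dCre (0.034% higher, 0.0146% lower), 0.00972% in E123 dCre, 0.0146% in E1 Cre and in E23 Cre, and 0.00486% in E123 Cre. Between 1214 and 2025 genes had an unadjusted p under 0.05 in each of these 5.

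**Figure D4:**
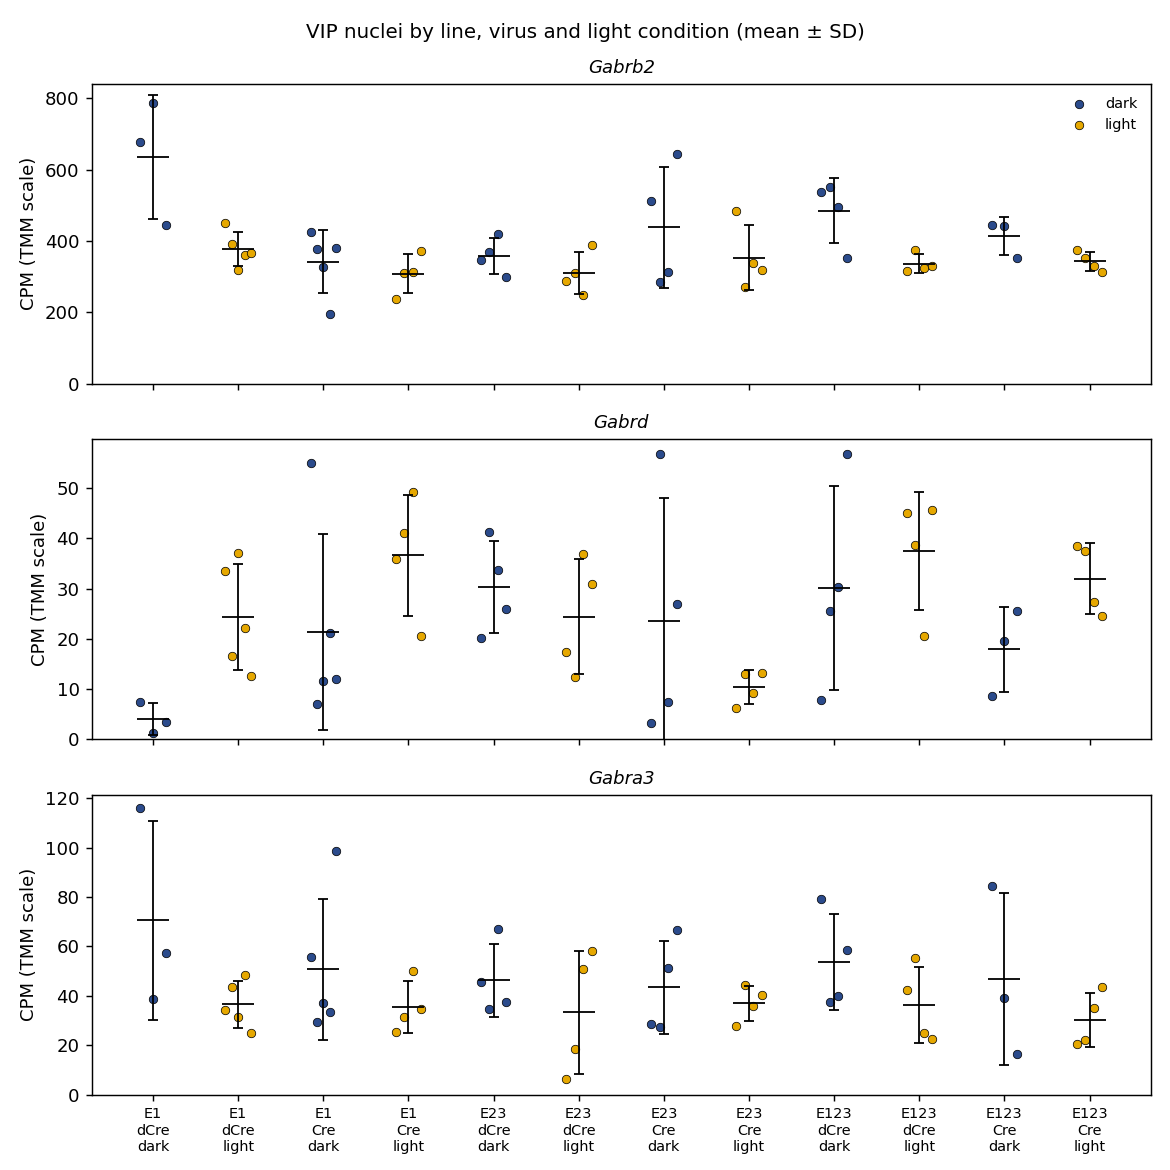
Level of Gabrb2, Gabrd and Gabra3 in CPM in each VIP library, by line, virus and light condition; blue points are dark, yellow points light, and bars give the mean and SD of 3 to 5 libraries. The E1 dCre dark group has the highest mean of Gabrb2 (libraries at 444 to 786 CPM) and the lowest mean of Gabrd (1.26 to 7.37 CPM).

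Deletion of the Igf1 enhancers with Cre was not followed by a change past the threshold in any member. In VIP nuclei of line E1, with both light conditions averaged, 0 of the 7 genes passed against 1.57% of genes (0.928% higher, 0.646% lower). Gabrd had a median of 14.6 CPM in the 8 dCre libraries (1.26 to 37.0) and 21.2 CPM in the 9 Cre libraries (7.03 to 55.1), and the groups overlap over most of their range. In dark its means were 4.004 ± 3.10 CPM with dCre (SD, n = 3) and 21.4 ± 19.5 CPM with Cre (n = 5). In light they were 24.4 ± 10.6 CPM (n = 5) and 36.6 ± 12.1 CPM (n = 4). The wider gap was thus in dark, and the low dark dCre group is the one in the light call of Gabrd in E1. For Gabrd the log2 difference of 1.54 ± 0.44 had an edgeR adjusted p of 0.0518, next to the threshold. It passed with size factors of the DESeq2 type (adjusted p = 0.0499), with total counts alone (0.0405), with no filter (0.00687), with sex as a covariate (0.0411) and with DESeq2 (0.0129). It did not with a term for the index (1.14, adjusted p = 0.803) or without the 4 dark animals of high index (1.64, adjusted p = 0.682), and it passed in 11 of 48 fits that each left out 1 library. Gabrb2 had a median of 418 CPM with dCre (319 to 786) and 327 CPM with Cre (196 to 426). Its difference of -0.53 ± 0.16 had an adjusted p of 0.0606, and was -0.13 with the index as a covariate and -0.32 without the 4 dark animals. The length index was 2.14 to 4.19 in the dCre and 1.69 to 2.78 in the Cre libraries of this line, and the summed excitatory markers were 25.0 to 310 and 25.2 to 140 CPM. The part of either in these differences was not tested.

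In E23, 0 of the 7 genes and 0% of all genes passed in VIP nuclei with Cre, with 1292 genes at an unadjusted p under 0.05. Gabrd had a median of 28.4 CPM with dCre (12.3 to 41.3, n = 8) and 11.2 CPM with Cre (3.16 to 56.9, n = 8), a difference of -0.79 ± 0.42 (edgeR adjusted p = 0.836). In E123, 0 of the 7 genes passed against 0.0389% of genes (0.0291% higher, 0.00972% lower), and Gabrd had a median of 34.5 CPM with dCre (7.88 to 56.9, n = 8) and 25.5 CPM with Cre (8.64 to 38.4, n = 7; -0.48 ± 0.44, adjusted p = 0.664; -0.75 without the dark animals of high index). So the fitted difference in Gabrd was above 0 in E1 and below 0 in the other lines, and none passed. Gabrb2 differed by 0.23 ± 0.16 in E23 (interval of 2 SE from -0.09 to 0.56) and by -0.08 ± 0.17 in E123 (-0.42 to 0.26). In total nuclei 0 of the 7 genes passed against 0.0283% of genes (0.0189% higher, 0.00943% lower), and Gabrd differed by 0.25 ± 0.16 (edgeR adjusted p = 0.602), and by 0.0096 without the 4 dark animals.

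Sex was compared because Gabra3 lies on the X chromosome. In VIP nuclei 0 of the 7 genes differed between males and females, against 0.0729% of genes (0.0389% higher, 0.034% lower). Gabra3 had a median of 34.95 CPM in 26 female libraries (6.43 to 116) and 41.2 CPM in 22 male libraries (18.3 to 98.6). The log2 difference, male minus female, was 0.12 ± 0.20 (edgeR adjusted p = 0.930; interval of 2 SE from -0.29 to 0.52). Gabra4 had the largest, 0.32 ± 0.14 (adjusted p = 0.559), with medians of 62.0 CPM in females and 73.2 CPM in males.

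The same tests were read for other parts of the GABA system, beside a background for VIP against total nuclei of 14.8% of all genes higher and 20.7% lower. Light values of these genes were not recomputed without the 4 dark animals of high index. Of 12 other GABA-A subunit genes, 10 were tested for VIP against total nuclei, 1 was higher and 3 were lower, with a median of -0.13. Gabrg3, the gamma3 subunit, was higher (1121 ± 386 against 637 ± 208 CPM, SD, n = 48; log2 difference 0.82 ± 0.08, edgeR adjusted p = 1.93e-15). Gabrg1 (1.92 ± 3.26 against 7.24 ± 5.86 CPM; -2.19 ± 0.46) and Gabrr2 (1.29 ± 1.90 against 4.67 ± 5.36 CPM; -2.34 ± 0.49) were among those that were lower. After light in line E1 dCre, Gabrg3, which spans 671 kb, fell by 1.10 ± 0.27.

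Of 27 genes for anchoring and trafficking of the receptor, 8 were higher and 7 lower in VIP nuclei, with a median of 0.03. Gphn, whose product gephyrin anchors receptors at inhibitory synapses, was higher (0.85 ± 0.06, edgeR adjusted p = 4.74e-21), and Plcl1, a binding protein of the receptor, was lower (-1.59 ± 0.10, adjusted p = 2.60e-25). Inpp5d (-5.20 ± 0.40) and Mdga1 (-4.05 ± 0.36) were also lower; Inpp5d is known chiefly from blood cells and microglia, and the microglial markers were lower in VIP nuclei too. Of 5 genes for GABA-B receptors and their auxiliary subunits, Kctd16 (0.90 ± 0.07) and Kctd12 (1.77 ± 0.23) were higher and Kctd8 (-1.02 ± 0.16) lower. Of 10 genes for synthesis and transport of GABA and for chloride transport, 1 was lower and 7 were higher, among them Gad1 (2.74 ± 0.13) and Gad2 (2.85 ± 0.15), the enzymes that make GABA, and Abat (1.53 ± 0.11), which breaks it down. After light in VIP nuclei of dCre animals, Gad1 (0.85 ± 0.16, adjusted p = 0.00105), Gad2 (0.72 ± 0.14, adjusted p = 0.00117) and Gabarapl1 (0.76 ± 0.21, adjusted p = 0.0261), of the GABARAP family of receptor-binding proteins, rose. Kctd16 (-0.41 ± 0.13, adjusted p = 0.0461) and the GABA carrier Slc6a11 (-0.85 ± 0.26, adjusted p = 0.0375) fell.

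Genes of the most similar pattern were found by Pearson's r of mean log2(CPM + 1) over the 24 group means, which share the split into VIP and total nuclei. They were Crym (r = 0.957) and Cyp46a1 (0.946) for Gabrd, Ndst4 (0.953) and C1ql3 (0.951) for Gabra5, and Smoc2 (0.942) and Cd34 (0.941) for Gabra4. For Gabrb2 Tpsg1 (0.923) was among them, and for Gabrb1 they were Magi2 (0.918) and Fgf14 (0.915). Gabra3 was closest to Oacyl (0.855) and Ccdc85a (0.815), and Gabra2 to Lpl (0.809) and Chn1 (0.805).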

How the data were processed

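Per the labels' protocols, nuclei were sorted by FACS, RNA was reverse transcribed with oligo-dT primers and amplified over 17 PCR cycles without molecular identifiers, so replicate spread also holds amplification noise. The authors deposited a table of raw counts per gene; cutadapt 1.18, STAR 2.5.3a, HOMER 4.9.1 and mm10 are named in the submitters' processing notes, while strand, annotation and counted features are not given in the sources used here. Of 55335 identifiers, 55154 matched the GENCODE annotation of GRCm38, and the 181 others held 0.0225% of counts.

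Counts were tested with edgeR 4.0.16 (R 4.3.3, limma 3.58.1) by the quasi-likelihood F test with TMM scaling, filterByExpr and robust fitting, on group means; a call is a Benjamini-Hochberg adjusted p under 0.05 over all genes tested. Standard errors were taken from the size of the log2 change over the root of its F statistic. One fit held all 96 libraries (22926 genes), others the 48 VIP (20585 genes) or 48 total libraries (21213 genes). Each was tested on simulated data with known changes. No 2 replicates were alike within counting noise (148 pairs, chi-square per degree of freedom of at least 9.01). Alternatives were other scaling, no filter, sex, the length index or the replicate number as a covariate, DESeq2 1.42.0, leaving out each library, and leaving out the 4 dark animals of high index. The genes, the lists and the markers were chosen with earlier results of these data known. Members were named in full by the list itself; other genes are the most significant members of each list, up to 4 in a comparison, and some of them are not reported here.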

Additional observations from a re-analysis of the deposited data

Results flagged for a closer look

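Gabra4 in VIP nuclei of E1 dCre mice after light was 129.5 CPM in library 5, against 56.1 to 67.1 CPM in the other 4 libraries of the group. Its gap to the nearest library was 0.851 of the range of the group. In all, 140 sets of 4 or 5 libraries were examined over the 7 genes and 1 stood apart, where chance alone gives about 5% of sets. Without this library the light change of Gabra4 in VIP nuclei of dCre animals was -0.0023 on the log2 scale, against 0.09 with it.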

How the results depend on the processing

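The 6 calls between VIP and total nuclei kept their direction and side of the threshold under all 8 alternative settings and without any replicate number. The light call of Gabrb2 in VIP dCre (-0.53 to -0.15) and that of Gabrd in E1 dCre (2.13 to 3.36) kept their direction and lost the threshold under some alternatives. In simulated counts for light, 61 of 100 genes changed 2-fold were found over the 3 dCre lines and 3 of 100 in E1 dCre alone; other depths were not simulated. The cause of the shifts below was not tested, and log2 values are given for genes and counts of calls otherwise.

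With the length index as a covariate, the members called fell to 0 for light in VIP dCre and in its E1 part. The genes called were 142 (light, VIP dCre), 177 (light, VIP Cre), 417 (light, total dCre) and 518 (light, total Cre). For light in single lines they were 5 (E1 dCre), 22 (E23 dCre), 23 (E123 dCre), 12 (E1 Cre), 27 (E23 Cre) and 2 (E123 Cre), and they were 0 for Cre against dCre in E1, E123 and total nuclei and for the difference of light responses between viruses. Directions turned for Gabra5 (-0.016) and Gabrb1 (0.12) after light in VIP dCre, Gabrd after light in total dCre (-0.17), Gabrb2 with Cre in E123 (0.26) and the difference of its light responses (-0.011).

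Without the 4 dark animals of high index, 0 members were called for light in VIP dCre and in E1 dCre. The genes called were 46 (light, VIP dCre), 157 (light, total dCre), 0 (light, E1 dCre and E123 dCre), 5 (light, E1 Cre and E23 Cre), and 0 for Cre against dCre in E1, E123 and total nuclei and for the difference between viruses. Directions turned for Gabrb1 after light in VIP dCre (0.0026), Gabrd after light in total dCre (-0.25) and E123 dCre (-0.22) and Gabrb2 with Cre in E123 (0.0031).

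DESeq2 called more genes: 2044 (light, VIP dCre), 185 (light, VIP Cre), 1813 (light, total dCre), 1901, 70 and 42 (light, dCre in E1, E23 and E123), 31, 43 and 34 (light, Cre in E1, E23 and E123), 1326, 17 and 746 (Cre against dCre in E1, E23 and E123), 42 (Cre, total), 23 for each difference of light responses and 63 (sex). It called 2 members for light in E1 dCre and 2 for Cre in E1. With no filter the counts were 229 (light, VIP Cre), 521 (light, total Cre), 73 and 65 (light, dCre in E23 and E123), 40, 49 and 48 (light, Cre in E1, E23 and E123), 1195, 36 and 595 (Cre against dCre in E1, E23 and E123), 284 (Cre, total), 144 (difference between viruses) and 77 (sex). Members called were then 0 for light in VIP dCre and 1 for Cre in E1.

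With scaling to total counts, 0 members were called for light in VIP dCre and 1 for Cre in E1, the genes called were 10 (light, E23 Cre), 26 (Cre, E123) and 0 (difference between viruses), Gabrb2 with Cre in E123 turned to 0.091, and 2 members changed place in the VIP order. Whole-gene length moved 5 members in VIP and 6 in total nuclei. With sex as a covariate, 1 member was called for Cre in E1, and genes called were 8 (light, E123 dCre), 682 (Cre, E1), 24 (Cre, E123) and 0 (difference between viruses). Size factors of the DESeq2 type gave 1 member for Cre in E1 and 8 genes for light in E23 Cre.

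Replicate numbers did not meet the criterion for pairing: VIP and total libraries of 1 number correlated at a median r of 0.137 over 48 pairs, 28 of them above 0.1. The median was -0.0401 for other numbers of the condition. Sex labels were the same in 48 of 48 pairs, and 33 VIP libraries correlated best with their own number. The main test of VIP against total nuclei did not use the numbers. In the fit of all libraries the block was the replicate number within a condition. In fits of VIP or total libraries alone it was the replicate number within a line, across light and virus conditions. VIP libraries of 1 line that shared a number across conditions correlated at a median r of 0.0428, against -0.0168 for other numbers. With the replicate block, 2 members were called for light in VIP dCre (Gabrb2 and Gabrd, 1.11, edgeR adjusted p = 0.0424) and 1 for Cre in E1. Gabra3 then passed between VIP and total nuclei (-0.29, edgeR adjusted p = 0.0473). Genes called under the block were 17 (light, E23 dCre), 6 (light, E23 Cre), 563 (Cre, E1), 171 (Cre, E123), 0 (difference between viruses) and 7 (sex), and Gabra5 after light in VIP dCre (-0.059) and Gabra3 between sexes (-0.012) turned.

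Leaving out each library in turn, genes called ranged from 615 to 2476 (light, VIP dCre), 36 to 89 (light, VIP Cre), 597 to 2466 (light, total dCre), 187 to 340 (light, total Cre), 17 to 2425, 1 to 12 and 0 to 4 (light, dCre in E1, E23 and E123), 2 to 6, 1 to 10 and 0 to 1 (light, Cre in E1, E23 and E123), 10 to 2411 (Cre, E1), 0 to 341 (Cre, E123), 0 to 527 (Cre, total), 0 to 320 (difference between viruses) and 0 to 6 (between fractions). Members called ranged from 0 to 1 for light in VIP dCre and in total dCre, and from 0 to 2 for light in E1 dCre and for Cre in E1. Gabra4 ranged from -0.0023 to 0.18 and Gabra5 from -0.075 to 0.17 after light in VIP dCre, and Gabrd from -0.015 to 0.85 in E123 dCre.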
